A study of Mus musculus with 24 samples.

Results

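The Ms4a members are 7 mouse genes of the membrane-spanning 4-domains family A, chosen by symbol: Ms4a4a, Ms4a4b, Ms4a4c, Ms4a6b, Ms4a6c, Ms4a6d and Ms4a7. They are 7 of the 36333 genes in the expression table of a traumatic brain injury (TBI) experiment. Of the 7, 6 had a mean of at least 0.5 TPM (transcripts of a gene as a part of all transcripts, scaled for length and library total) over the 24 libraries and are called measured. Ms4a4b, with a mean of 0.282 TPM, did not reach this level and is reported as not measured. On the other side of this limit, the lowest measured member was Ms4a4c with 0.711 TPM. Its group means were above the limit in Vehicle, Anakinra and PLX3397 mice (1.06, 1.27 and 0.773 TPM). They were under it in Sham and PLX3397+Anakinra mice (0.052 and 0.265 TPM), so Ms4a4c counts as measured through groups in which it was high. The Sham mean of Ms4a6c was also under the limit (0.377 TPM), so its ratios to Sham rest on low values. The symbols were picked with earlier results known, and 5 of them stand in the study's own list of genes changed by PLX3397 and by PLX3397+Anakinra against Vehicle. The values of those 2 comparisons are therefore given as a description, without a test. Every tested comparison except Anakinra versus Sham shares mice with them, so counts of members called there are not independent of the choice.

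Per the labels all mice were male C57BL6N mice, 12 to 16 weeks old, with tissue taken at 5 days, whereas the methods name the strain C57BL/6JRj and a narrower range of ages. Controlled cortical impact (CCI), a piston blow to the exposed brain, was followed by 1 of 4 treatments with 5 mice each. Vehicle mice received control chow and saline injections. PLX3397 mice ate chow with 290 mg/kg of PLX3397, an inhibitor of the colony stimulating factor 1 receptor (CSF1R) on which microglia depend, from 90 min after the injury. Anakinra mice received subcutaneous injections of 100 mg/kg of Anakinra, a recombinant antagonist of the interleukin 1 receptor, at 5 min and at 24, 48 and 72 h. PLX3397+Anakinra mice received the drug chow and the drug injections. The 4 Sham mice had a skin incision and no craniotomy, so that craniotomy and impact cannot be told apart. No group received a drug without the injury. The Vehicle mice alone carry animal identifiers that end in the letter B, whose meaning the labels do not give, so that a difference tied to this letter cannot be told apart from the treatment.

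Proteins of this family cross the membrane 4 times, as does CD20, the B cell protein encoded by Ms4a1. Other members are carried by mast cells, T cells and myeloid cells, where several of them sit beside immune receptors and modulate their signalling. Ms4a4a and the Ms4a6 genes are best known from monocytes and macrophages, and Ms4a7 from tissue macrophages at the borders of the brain and from macrophages that enter it. Ms4a4b and Ms4a4c are known from lymphocytes and interferon-treated cells.

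The 7 genes lie in a row on chromosome 19 of GRCm38, interrupted only by Ms4a4d before Ms4a6d, and span 283.8 kb (RefSeq gene models). Ms4a7 occupies chr19:11321039-11336146 and Ms4a4a chr19:11375488-11392915. They are followed by Ms4a4c (chr19:11404717-11427246), Ms4a4b (chr19:11443558-11463549) and Ms4a6c (chr19:11469353-11487182). Ms4a6b (chr19:11518559-11530403) and Ms4a6d (chr19:11586606-11604804) close the row. Ms4a7 and Ms4a6d are on the minus strand and the other 5 on the plus strand. The coding sequences ran from 654 bases in Ms4a6c to 804 bases in Ms4a7, in 6 coding exons each and 7 in Ms4a7.

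The 3 Ms4a6 genes are close copies, which matters for the reading of their values side by side. Their first 90 coding bases are shown, from GENCODE vM21 transcripts on GRCm38, with the 19 positions at which the 3 genes are not all alike in capitals:
Ms4a6b: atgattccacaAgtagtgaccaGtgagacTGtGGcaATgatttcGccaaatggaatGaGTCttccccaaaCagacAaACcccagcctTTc
Ms4a6c: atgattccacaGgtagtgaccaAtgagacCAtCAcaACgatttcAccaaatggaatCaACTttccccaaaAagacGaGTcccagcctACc
Ms4a6d: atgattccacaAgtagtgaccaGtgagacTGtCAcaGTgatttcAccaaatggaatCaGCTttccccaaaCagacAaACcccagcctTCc

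Over the whole coding sequence, Ms4a6b shared 86.3% of its aligned bases with Ms4a6c and 81.8% with Ms4a6d, and Ms4a6c shared 79.7% with Ms4a6d. Ms4a4b and Ms4a4c were nearer still, at 91.8%. Their first 90 coding bases are shown because a low member, Ms4a4c, has to be told apart from a member that was not measured, and the 7 positions that differ are in capitals:
Ms4a4b: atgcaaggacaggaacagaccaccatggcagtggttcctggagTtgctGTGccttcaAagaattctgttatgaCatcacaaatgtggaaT
Ms4a4c: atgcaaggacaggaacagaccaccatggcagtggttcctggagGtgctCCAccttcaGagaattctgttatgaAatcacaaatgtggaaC

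Ms4a4a shared 69.9% with Ms4a4b and 68.8% with Ms4a4c, and Ms4a7 no more than 69.0% with any other member. The same stretch of these 2 genes, shown in lower case, has no close copy among the members:
Ms4a4a: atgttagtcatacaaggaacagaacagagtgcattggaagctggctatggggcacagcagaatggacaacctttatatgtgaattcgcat
Ms4a7: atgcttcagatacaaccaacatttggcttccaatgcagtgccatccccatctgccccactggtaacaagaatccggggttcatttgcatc

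For each member the transcript with the longest coding sequence was searched. No stretch of 150 bases in it was found in a transcript of another Ms4a gene. At 100 bases, 28 of the 1624 stretches of Ms4a4c and 41 of the 4651 of Ms4a4b had a match, and none of the other 5 members had one. At 50 bases the share was 8.48% in Ms4a4c, 4.19% in Ms4a4b, 5.66% in Ms4a6b, 6.08% in Ms4a6c and 2.92% in Ms4a6d, and 0 in Ms4a4a and Ms4a7. How the authors' counting placed reads that fit more than 1 copy is not given in the sources used here, so the levels of the 3 Ms4a6 genes, and above all of Ms4a4c, are uncertain to that extent.

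The RefSeq table held a promoter for 6 of the 7 members (7 start sites, GRCm38.p6), and Ms4a6d was not among them. Ms4a6b and Ms4a6c, whose profiles over the libraries were the nearest of any 2 members (given with the similar genes), also share promoter sequence. The 250 bases before each start are shown, with the longest identical run of 48 bases in capitals. The upper is chr19:11518309-11518558 and the lower chr19:11469118-11469367, each on the plus strand:
Ms4a6b: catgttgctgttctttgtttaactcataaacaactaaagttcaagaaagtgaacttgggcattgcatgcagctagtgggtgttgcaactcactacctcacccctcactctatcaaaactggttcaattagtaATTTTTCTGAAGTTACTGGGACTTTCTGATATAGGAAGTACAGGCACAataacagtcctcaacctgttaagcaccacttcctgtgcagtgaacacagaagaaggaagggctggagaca
Ms4a6c: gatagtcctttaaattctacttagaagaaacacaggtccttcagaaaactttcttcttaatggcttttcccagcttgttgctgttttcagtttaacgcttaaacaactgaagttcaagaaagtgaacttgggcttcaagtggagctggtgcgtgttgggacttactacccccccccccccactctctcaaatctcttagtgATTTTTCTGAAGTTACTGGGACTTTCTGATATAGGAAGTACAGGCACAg

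Counted from the annotated starts, the run lies from -118 to -71 in Ms4a6b and from -49 to -2 in Ms4a6c. The promoters of the members, 300 bases each from 250 before the start, were searched on both strands for 4 patterns of letters, some of which can overlap. GAGGAA, the core bound by PU.1, a factor that myeloid cells require, was present before the starts of Ms4a4b and Ms4a4c and behind 1 start of Ms4a7, and 28.3% of all 32851 promoters held it. TGANTCA, the AP-1 pattern, was found at the second start of Ms4a7 and behind the start of Ms4a4b, and in 7.81% of all promoters. The ETS-IRF pattern, GGAA and GAAA with any 2 bases between, and the interferon-response core, GAAA repeated with any 2 bases between, were found at none of the 7 starts, against 2.71% and 3.44% of all promoters. These matches are a description of letters, not of binding.

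The tissue is labelled cortex, whereas the methods describe sections that also hold striatum, hippocampus and thalamus. Ppp1r1b, a gene of striatal neurons, was at 512.9 TPM or more in every library, so the labelled cortex was not free of striatum. Between 22160 and 23249 genes were above 0 per library, and the number of reads behind a value is unknown. In such bulk tissue, fewer cells of a type and less RNA per cell cannot be told apart. Summed TPM of marker lists differed between groups. A list of 11 homeostatic microglia genes summed to 379 to 404 TPM in Sham, 1549 to 1990 in Vehicle, 1695 to 1912 in Anakinra, 670 to 1027 in PLX3397 and 604 to 813 in PLX3397+Anakinra mice, with no marker at 0. A list of 10 border macrophage genes summed to 19.7 to 25.3, 142 to 282, 149.8 to 212, 68.1 to 119 and 41.5 to 55.1 TPM in the same order. A list of 8 monocyte markers summed to 26.2 to 38.0, 66.7 to 162.8, 146.6 to 229, 99.65 to 175.6 and 106.3 to 160.6 TPM in the same order. Lists of 11 T and NK cell markers, 6 B cell markers and 5 mast cell and basophil markers summed to at most 5.58, 3.42 and 3.00 TPM in any mouse, with Trbc2 and Ighm listed at 0 in every group. The part of these cell types in the results on the members was not tested.

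Every measured member was higher after the injury. In Vehicle mice 6 of the 6 measured members were higher than in Sham mice at adjusted p in limma, where 26.6% of the 17267 genes tested were called higher. The Vehicle mice also took part in the choice of the members, so this count is not independent of it. Their median log2 fold change was 2.73, against -0.01 over all genes. None of the 6 overlapped between the groups, as was the case for 21.7% of all genes. Fold changes of the model are on the scale of log2(TPM + 1), which understates those of low genes, and ratios of group means are given beside them.

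Ms4a6d, the most abundant member, was at 1.35, 1.29, 1.55 and 1.77 TPM in the Sham mice and at 48.5, 29.1, 42.4, 55.1 and 41.4 TPM in the Vehicle mice. Every Vehicle mouse was far above the highest Sham mouse, with Vehicle mouse J17B the lowest. The means were 1.49 ± 0.217 (SD, n = 4) and 43.3 ± 9.65 TPM (SD, n = 5), a ratio of 29.1 (log2 fold change 4.13, SE 0.16, adjusted p = 3.126e-16 in limma).

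Ms4a7, the member known from border macrophages, was at 0.745, 0.949, 0.438 and 0.257 TPM in Sham mice. It was at 16.9, 11.7, 20.1, 18.1 and 15.4 TPM in Vehicle mice. The groups were wide apart, at a ratio of means of 27.5 (log2 fold change 3.45, SE 0.22, adjusted p = 1.607e-12 in limma).

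Ms4a6c was at 0.577, 0.331, 0.366 and 0.233 TPM in Sham mice and at 10.3, 6.82, 10.1, 11.6 and 9.08 TPM in Vehicle mice. Its ratio of means, 25.4, was more than that of its close copy Ms4a6b, but rests on a Sham mean of 0.377 TPM, under the limit. Ms4a6b was at 1.01, 1.37, 1.11 and 1.57 TPM in Sham mice and at 13.5, 8.50, 10.02, 16.8 and 12.8 TPM in Vehicle mice, a ratio of 9.74. On this scale, which allows for transcript length, Ms4a6b was above Ms4a6c in every Sham mouse. The same held in every Vehicle mouse but J18B (10.02 and 10.1 TPM), although the 2 Vehicle ranges overlapped. The log2 fold changes were 2.93 (SE 0.14) for Ms4a6c and 2.53 (SE 0.17) for Ms4a6b, and each gene was called.

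Ms4a4a was between 0.136 and 1.00 TPM in Sham mice and between 3.26 and 8.86 TPM in Vehicle mice (log2 fold change 2.25, SE 0.23, adjusted p = 8.148e-09 in limma). Ms4a4c was listed at 0 in 2 of the Sham mice and at 0.049 and 0.160 TPM in the others, against 0.834 to 1.34 TPM in Vehicle mice (log2 fold change 0.97, SE 0.15, adjusted p = 6.518e-06 in limma). Ms4a4c passed the limit on low values through the groups in which it was high, so its place in this and later counts rests on them. Ms4a4b was listed at 0 in 3 of 4 Sham mice and at most 0.226 TPM in that group, and it reached 0.701 TPM in Vehicle and 0.981 TPM in PLX3397 mice. Its highest value in the series came from PLX3397 mouse J19.

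**Figure D1:**
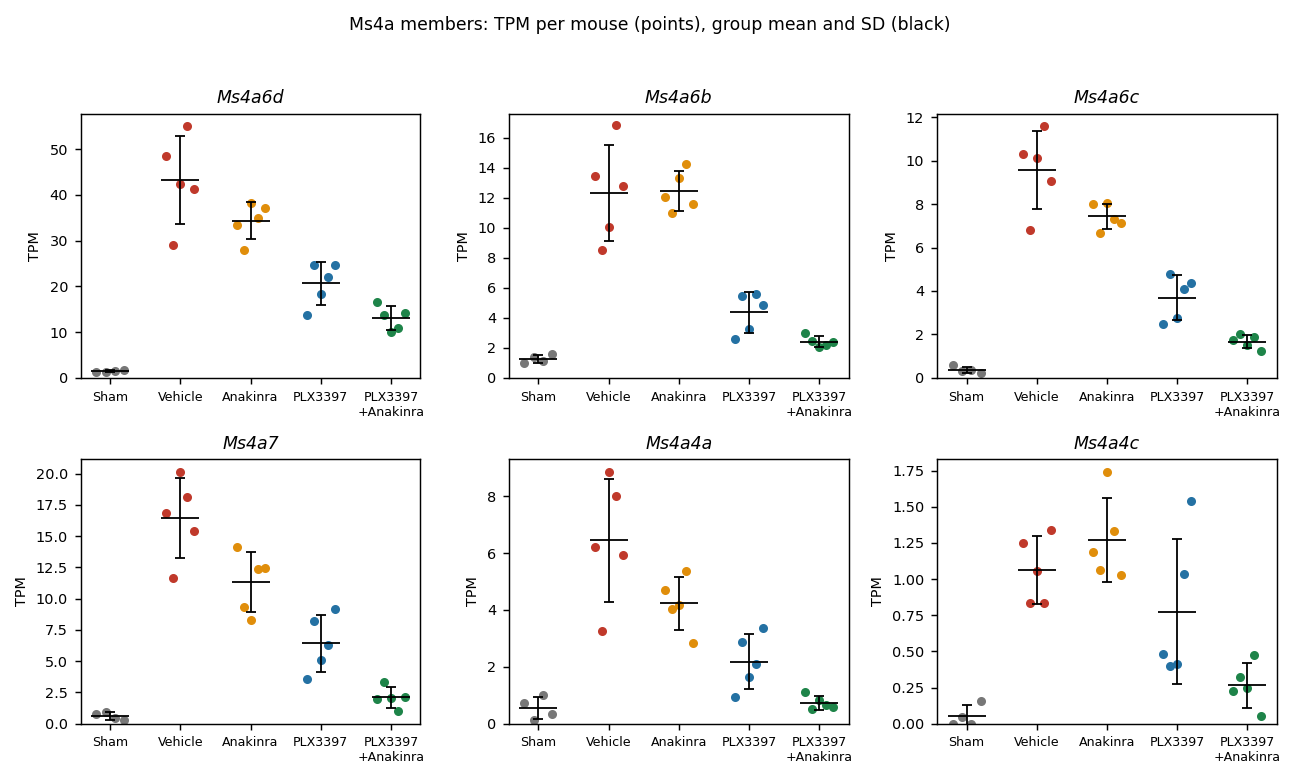
TPM of the 6 measured members (1 panel each, linear axes from 0 that differ between panels) in every mouse of the 5 groups, with the group mean and SD in black. Vehicle mice lie above all Sham mice in each panel, and PLX3397+Anakinra mice have the lowest mean of the injured groups, for Ms4a6d at 10.02 to 16.5 TPM against 29.1 to 55.1 TPM in Vehicle mice.

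The order of the group means was the same for Ms4a6d, Ms4a6c, Ms4a7 and Ms4a4a, with Vehicle first, then Anakinra, PLX3397, PLX3397+Anakinra and Sham. For Ms4a6b and Ms4a4c the Anakinra mean stood above the Vehicle mean, and the ranges of these neighbours overlapped for each of the 6 members. Vehicle mouse J17B had the lowest value of 5 of the 6 members, and PLX3397 mouse J01 the lowest value of 5 of the 6 members in its group. In no group was any mouse the highest in more than 3 members.

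Anakinra mice also had high levels of the members. All 6 were higher in Anakinra than in Sham mice at adjusted p in limma (25.1% of all genes were called higher), with log2 fold changes from 1.10 for Ms4a4c to 3.82 for Ms4a6d. This comparison is the only one tested here without mice of the groups from which the study's list was drawn. Against Vehicle, 0 of the 6 members passed in either direction, where 12 and 8 of the 17267 genes were called higher and lower (0.0695% and 0.0463%). At unadjusted p, Ms4a4a, Ms4a6c and Ms4a7 were lower, as were 6.94% of all genes, and no member was higher (5.5% of all genes).

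Ms4a6d was at 33.4, 27.9, 38.2, 35.0 and 37.2 TPM in Anakinra mice, a mean of 34.4 ± 4.05 TPM (SD, n = 5). This range overlaps the Vehicle range at its lower end. The log2 fold change to Vehicle was -0.30 with a 95% interval from -0.62 to 0.01 (adjusted p = 0.425 in limma). Ms4a7 was at 14.1, 9.30, 8.30, 12.4 and 12.5 TPM, with 2 mice below and 3 mice above the lowest Vehicle mouse. Its log2 fold change was -0.50 with an interval from -0.93 to -0.08 (adjusted p = 0.301 in limma). Ms4a6b had a mean of 12.4 ± 1.32 TPM (SD, n = 5) in Anakinra mice against 12.3 ± 3.23 TPM in Vehicle mice, and the interval of its log2 fold change ran from -0.28 to 0.36. For Ms4a6c the interval was -0.59 to -0.04, for Ms4a4a -0.92 to -0.03 and for Ms4a4c -0.16 to 0.43. Expressed against the rise from Sham to the Vehicle mean, Anakinra mice retained 67.7% ± 15.3 (SD, n = 5) for Ms4a7, 101% ± 12.0 for Ms4a6b, 78.6% ± 9.68 for Ms4a6d and 76.6% ± 6.39 for Ms4a6c, with the lowest value for Ms4a4a (62.3% ± 15.9) and the highest for Ms4a4c (120.4% ± 28.5).

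PLX3397 mice held intermediate levels. Ms4a6d was at 13.7, 24.8, 18.3, 21.97 and 24.7 TPM, below every Vehicle mouse and above every Sham mouse. Ms4a7 was at 3.56, 8.22, 5.05, 6.26 and 9.14 TPM and Ms4a6c at 2.48, 4.76, 2.74, 4.11 and 4.39 TPM, which placed them likewise. Ms4a6b was at 2.60, 5.49, 3.28, 5.56 and 4.87 TPM. The ranges of Ms4a4a in PLX3397 mice, 0.932 to 3.37 TPM, and of Ms4a4c, 0.401 to 1.54 TPM, overlapped with those in Vehicle mice.

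As a description, the log2 fold changes of PLX3397 against Vehicle were -1.03 (SE 0.15) for Ms4a6d, -1.18 (SE 0.13) for Ms4a6c, -1.23 (SE 0.21) for Ms4a4a, -1.26 (SE 0.21) for Ms4a7 and -1.32 (SE 0.16) for Ms4a6b. That of Ms4a4c was -0.25 (SE 0.14). In the fit over all genes 5 of the 6 members were lower and 6.66% of all genes were, and 4 did not overlap with Vehicle, as for 4.91% of all genes. Nothing is read from these counts, since this comparison chose the members. Against Sham, all 6 were higher in PLX3397 mice at adjusted p in limma, with 22.7% of all genes called higher. The groups did not overlap for 5 of them, all but Ms4a4a, as for 18.7% of all genes. Of the rise from Sham to the Vehicle mean, PLX3397 mice retained 45.9% ± 11.2 (SD, n = 5) for Ms4a6d, 36.9% ± 14.4 for Ms4a7, 36.1% ± 11.1 for Ms4a6c, 28.0% ± 12.2 for Ms4a6b and 27.7% ± 16.4 for Ms4a4a. Ms4a4c stood apart with 71.3% ± 49.7 and a range from 34.4% to 147% over the 5 mice.

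The lowest levels among injured mice were those of PLX3397+Anakinra. Ms4a6d was at 16.5, 13.7, 10.02, 10.9 and 14.2 TPM in these mice. Ms4a7 was at 1.94, 3.36, 2.08, 0.988 and 2.17 TPM. Ms4a6c was at 1.73, 2.00, 1.52, 1.87 and 1.24 TPM and Ms4a6b at 3.00, 2.43, 2.04, 2.17 and 2.38 TPM. For each of these 4 genes every mouse was below the lowest Vehicle and Anakinra mice and above the highest Sham mouse. Ms4a4a, at 0.515 to 1.12 TPM, and Ms4a4c, at 0.052 to 0.474 TPM, overlapped with their Sham ranges.

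As a description, the log2 fold changes of PLX3397+Anakinra against Vehicle ran from -0.71 (SE 0.14) for Ms4a4c to -2.51 (SE 0.21) for Ms4a7, with -1.65 (SE 0.15) for Ms4a6d, -1.94 (SE 0.16) for Ms4a6b, -1.98 (SE 0.13) for Ms4a6c and -2.05 (SE 0.21) for Ms4a4a. All 6 were among the 9.6% of genes called lower and the 6.62% that did not overlap, from which again nothing is read. Of the rise from Sham to Vehicle these mice retained 27.7% ± 6.23 (SD, n = 5) for Ms4a6d, 14.04% ± 3.27 for Ms4a6c, 10.3% ± 3.36 for Ms4a6b, 9.55% ± 5.33 for Ms4a7, 3.24% ± 4.10 for Ms4a4a and 21.1% ± 15.2 for Ms4a4c.

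Against Sham, 4 of the 6 members remained higher in PLX3397+Anakinra mice (20.7% of all genes were called higher), and these 4 did not overlap with Sham, as for 16.9% of all genes. Ms4a6d was higher at a ratio of means of 8.78 (log2 fold change 2.48, SE 0.16, adjusted p = 1.775e-11 in limma), Ms4a6c at 4.43, Ms4a7 at 3.53 and Ms4a6b at 1.90. The log2 fold change of Ms4a4a was 0.19, with a 95% interval from -0.28 to 0.66 (adjusted p = 0.538 in limma). That of Ms4a4c was 0.26, from -0.05 to 0.57 (adjusted p = 0.180), and with a pseudocount of 0.1 it was 1.26 and passed (adjusted p = 0.011 in limma).

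Every measured member was lower with both drugs than with Anakinra alone. All 6 were lower in PLX3397+Anakinra than in Anakinra mice at adjusted p in limma, where 8.1% of all genes were called lower, and the groups did not overlap for any of them, as was the case for 7.26% of all genes in this direction. The PLX3397+Anakinra mice took part in the choice of the members through low values against Vehicle. These counts are therefore not independent of that choice. The log2 fold changes were -2.01 (SE 0.21) for Ms4a7, -1.98 (SE 0.16) for Ms4a6b, -1.66 (SE 0.13) for Ms4a6c, -1.58 (SE 0.21) for Ms4a4a, -1.34 (SE 0.15) for Ms4a6d and -0.84 (SE 0.14) for Ms4a4c. The largest adjusted p was 0.0001256, that of Ms4a4c. The microglia and border macrophage lists were lower as well, with 11 of 11 and 9 of 9 measured genes called. Of 5 measured monocyte genes 2 were called lower, and of 3 neutrophil genes 1.

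Ms4a7 and Ms4a6c were lower with both drugs than with PLX3397 alone. These were 2 of the 6 measured members called, where 0.145% of all genes, 25 of 17267, were called lower. Mice of both groups took part in the choice of the members, so the counts in this comparison are not independent of it. The ratio of means of PLX3397 to PLX3397+Anakinra mice was 3.06 for Ms4a7 (log2 fold change -1.25, SE 0.21, adjusted p = 0.00528 in limma) and 2.21 for Ms4a6c (log2 fold change -0.79, SE 0.13, adjusted p = 0.00599). The groups did not overlap for these 2 genes, as was the case for 0.764% of all genes in this direction. Ms4a6d, Ms4a6b, Ms4a4a and Ms4a4c had log2 fold changes of -0.62, -0.62, -0.83 and -0.45 and adjusted p from 0.130 to 0.331, and all 6 members were below 0.05 at unadjusted p (3.78% of all genes). With only the 2 groups in the fit no member passed, at adjusted p = 0.0647 for Ms4a7 and 0.0709 for Ms4a6c in limma. Without PLX3397 mouse J01, the lowest of its group, 5 members passed.

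In this comparison 2 of 9 measured border macrophage genes were called lower, beside 0.145% of all genes. The log2 fold changes of the 9 ran from -1.88 to 0.11, with 7 below 0. The summed TPM of this list did not overlap between PLX3397 (68.1 to 119) and PLX3397+Anakinra mice (41.5 to 55.1). The microglia list had 0 of 11 genes called in limma, 1 of them lower at unadjusted p, and its sums overlapped. Of 5 measured monocyte genes 0 were called, 1 of them lower at unadjusted p, and of 3 neutrophil genes 1 was called lower. The part of these cells in the fall of Ms4a7 and Ms4a6c was not tested. The interaction, the effect of Anakinra on top of PLX3397 less its effect alone, had 0 of 6 members called in limma, and 4 were lower without adjustment (Ms4a4c, Ms4a6b, Ms4a6c and Ms4a7). The interaction estimates were all below 0, from -0.31 (SE 0.22) for Ms4a6d to -0.74 (SE 0.29) for Ms4a7. Of all genes 0.0% were called after adjustment, and 4.22% were lower without it.

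**Figure D2:**
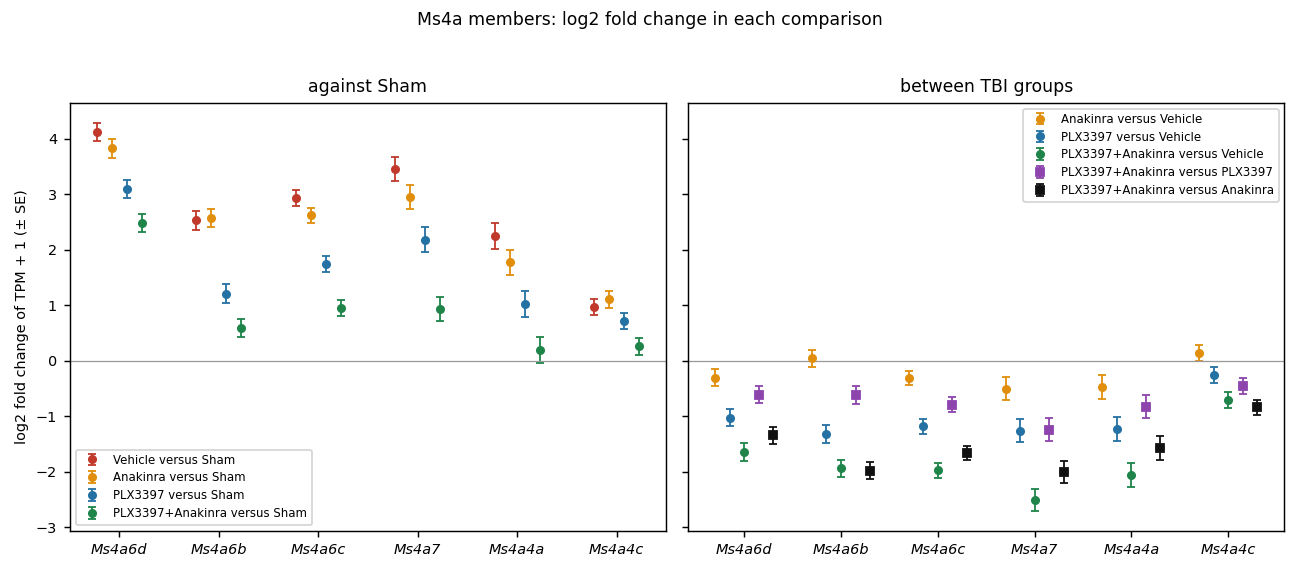
Log2 fold change of TPM + 1 with its standard error for the 6 measured members, against Sham (left) and between injured groups (right). Against Sham the values step down from Vehicle to PLX3397+Anakinra for Ms4a6d, Ms4a6c, Ms4a7 and Ms4a4a, and Anakinra versus Vehicle lies near 0 for Ms4a6b (0.04) and Ms4a4c (0.14).

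The make-up of the family signal also changed. The 6 measured members together came to 4.33 ± 0.152 TPM (SD, n = 4) in Sham, 89.1 ± 18.5 in Vehicle, 71.0 ± 6.29 in Anakinra, 38.2 ± 10.3 in PLX3397 and 20.2 ± 3.34 TPM (SD, n = 5 each) in PLX3397+Anakinra mice. Each member's share of this sum was compared in 7 comparisons, 42 exact two-sided permutation tests adjusted together, and 14 passed. The smallest p these group sizes allow is 0.00794.

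Ms4a6d took 34.4% ± 4.73 (SD, n = 4) of the sum in Sham, 48.5% ± 1.75 in Vehicle, 48.3% ± 3.04 in Anakinra, 54.8% ± 3.01 in PLX3397 and 64.3% ± 3.85 (SD, n = 5 each) in PLX3397+Anakinra mice. Its share in PLX3397+Anakinra mice, 59.9% to 68.9%, was above that of every mouse of any other group. It was higher than in PLX3397 mice by 9.42 percentage points and than in Anakinra mice by 15.9 points (adjusted p = 0.0278 each, exact permutation). Its values in all injured groups stood above those of the other members.

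Ms4a6b took a smaller part of the sum after the injury. In Sham brain it held 29.3% ± 6.42 (SD, n = 4) of the sum. Its share was 13.8% ± 1.74 in Vehicle, 17.5% ± 1.23 in Anakinra, 11.4% ± 1.37 in PLX3397 and 11.9% ± 0.689 (SD, n = 5 each) in PLX3397+Anakinra mice. The share was lower than in Sham in each injured group and higher in Anakinra than in Vehicle mice, by 3.73 points with no overlap (adjusted p = 0.0278 each, exact permutation). Ms4a7 fell from 16.6% ± 1.73 in PLX3397 to 10.3% ± 3.66 (SD, n = 5) in PLX3397+Anakinra mice, although the ranges overlapped (adjusted p = 0.0476, exact permutation). Ms4a4c took 1.79% ± 0.351 in Anakinra against 1.23% ± 0.305 (SD, n = 5) in Vehicle mice (adjusted p = 0.0476, exact permutation), a difference of 0.557 points. These last 2 calls were lost in 21 and 22 of the 24 fits that left out 1 mouse, those of Ms4a7 and Ms4a4c in that order. Many of these fits left out a mouse of a group outside the comparison, where the difference itself stayed the same. The shares of Ms4a6c and Ms4a4a differed in none of the comparisons after adjustment. In Sham mice the shares rest on a sum of under 4.48 TPM, and without Sham mouse J15 or J16 0 of the 42 passed, against 17 without J07 or J08. Without Vehicle mouse J18B or PLX3397 mouse J02, J19 or J20, 9 passed. Leaving out a mouse raises the smallest p possible in comparisons with Sham that involve its group, and it does so alike for each mouse of that group. How far this accounts for these counts, and whether single mice were influential, was not tested.

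**Figure D3:**
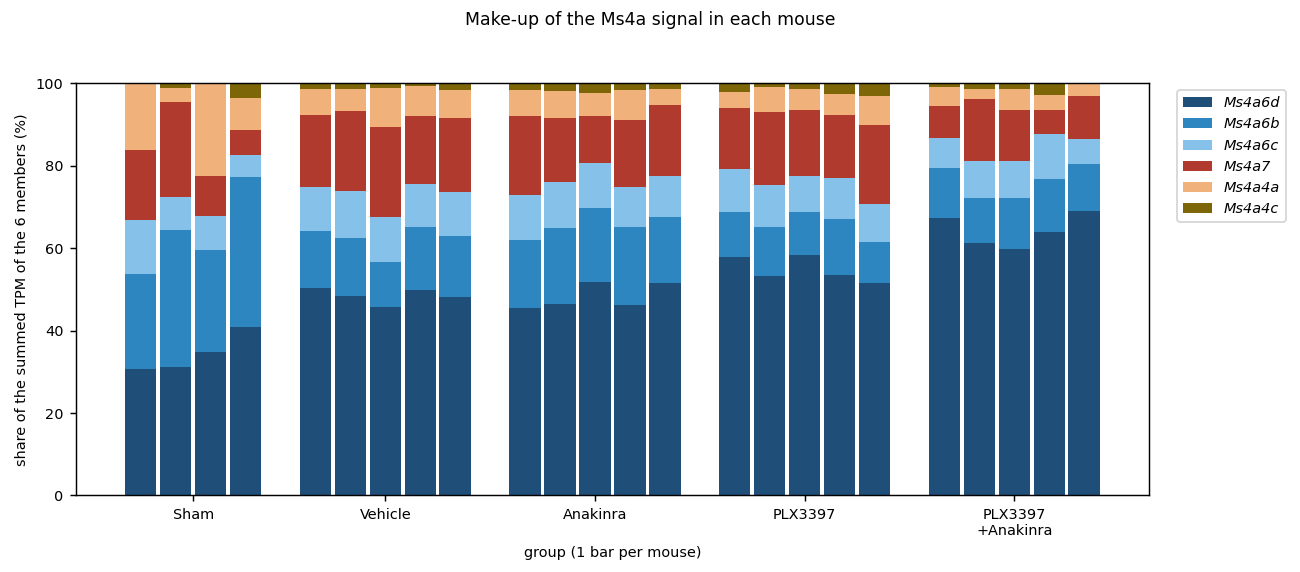
Share of each member in the summed TPM of the 6 measured members, in %, with 1 bar per mouse. Ms4a6d (dark blue) takes 34.4% on average in Sham and 64.3% in PLX3397+Anakinra mice, and Ms4a6b (mid blue) 29.3% in Sham and at most 17.5% on average in the injured groups.

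To compare the members with microglia genes in the same library, the mean log2(TPM + 1) of the 11 homeostatic microglia genes was taken off each member's own. Of 42 exact two-sided permutation tests adjusted together 27 passed, and 17 without Anakinra mouse J21 or J22. In Vehicle mice 4 members rose beyond this list: Ms4a6d by 2.41, Ms4a7 by 1.73, Ms4a6c by 1.21 and Ms4a6b by 0.81 on the log2 scale (adjusted p = 0.0185 each, exact permutation, no overlap with Sham). The difference was 0.53 for Ms4a4a (adjusted p = 0.0938, exact permutation), and it passed without Vehicle mouse J17B (0.68) and at a pseudocount of 0.1, where it was 1.74 (adjusted p = 0.0145, exact permutation). Ms4a4c was lower than the list by 0.75 at the pseudocount of 1 and higher by 1.27 at 0.1, so that its direction here depends on that choice.

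In PLX3397+Anakinra mice 5 of the 6 members stood lower against the microglia list than in PLX3397 mice. Ms4a7 differed by -1.18, Ms4a6c by -0.73 and Ms4a6b by -0.56 without overlap (adjusted p = 0.0185 each, exact permutation). Ms4a4a differed by -0.76 and Ms4a6d by -0.55 with overlapping ranges (adjusted p = 0.0267 each, exact permutation), and Ms4a4c by -0.39 (adjusted p = 0.176, exact permutation). Against Anakinra mice the result was mixed at the pseudocount of 1. Ms4a6b stood lower in PLX3397+Anakinra mice by 0.62 (adjusted p = 0.0185, exact permutation) and Ms4a6c by 0.30 (adjusted p = 0.0267, exact permutation). Ms4a6d differed by 0.02 (adjusted p = 0.889), Ms4a7 by -0.65 (adjusted p = 0.0595) and Ms4a4a by -0.22 (adjusted p = 0.248) in the same exact permutation test. Ms4a4c stood higher by 0.52 (adjusted p = 0.0385, exact permutation), a direction that turned at a pseudocount of 0.1 (-0.61). At that pseudocount Ms4a7 (-1.03) and Ms4a4a (-0.98) passed as lower.

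Anakinra mice stood lower than Vehicle mice against the list for Ms4a7 by 0.51 and for Ms4a6c by 0.31 (adjusted p = 0.0267 each, exact permutation). The ranges overlapped, and these calls were lost in 2 and 4 of the fits that left out 1 mouse. In limma, adjusted over 17267 genes rather than 42 tests, the log2 fold changes of -0.50 and -0.31 were not called (adjusted p = 0.301 and 0.325). The list itself had 0 of 11 genes called between Anakinra and Vehicle in limma, with 1 higher and 0 lower at unadjusted p, and a median log2 fold change of -0.03. As a description, PLX3397 and Vehicle mice differed against the list by between -0.02 and 0.27 for all measured members but Ms4a4c, for which the value was 1.04.

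**Figure D4:**
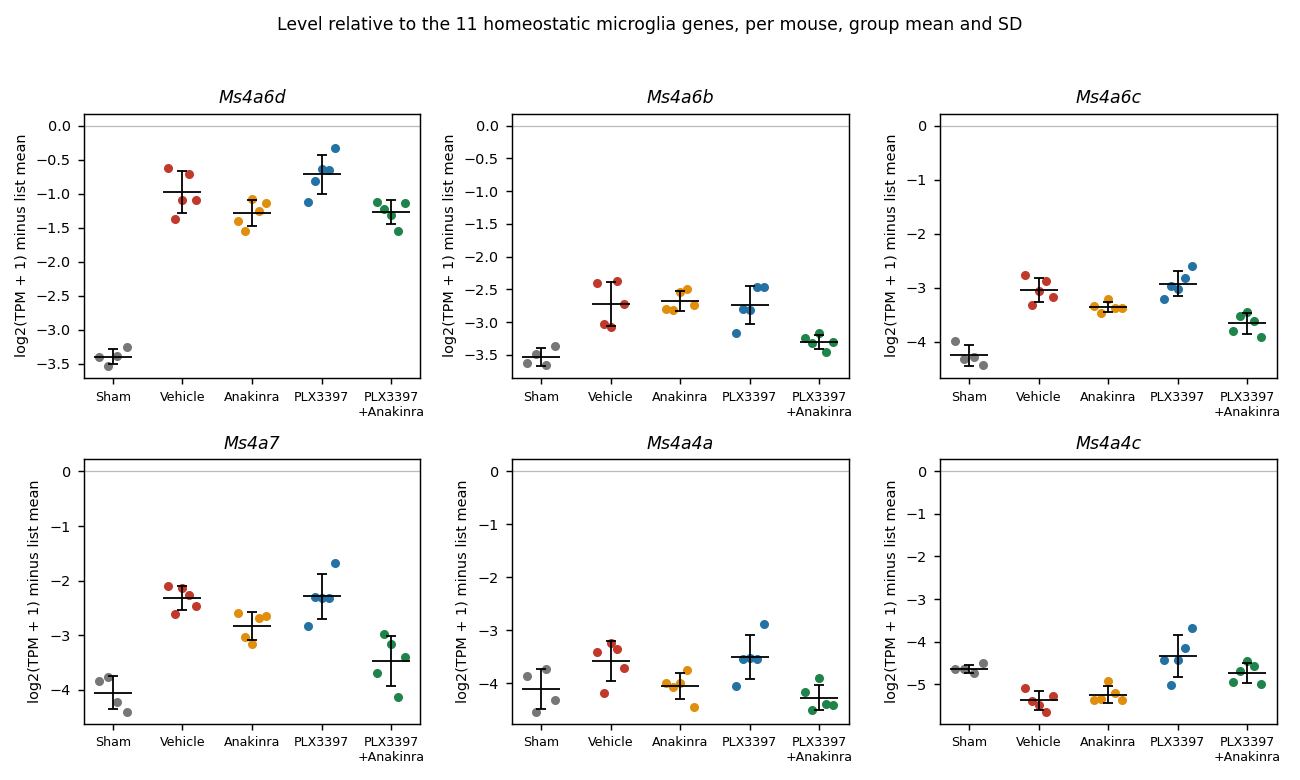
Log2(TPM + 1) of each measured member less the mean of 11 homeostatic microglia genes, per mouse, with group mean and SD. Ms4a6d lies near -3.39 in Sham and between -1.55 and -0.34 in all injured mice, and Ms4a7 is lower in PLX3397+Anakinra mice (mean -3.47) than in PLX3397 mice (mean -2.29).

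Genes with a profile like that of a member were sought among 14408 others with a mean of at least 2 TPM, by the root mean square difference of centred log2(TPM + 1) over the 24 libraries. These libraries share the injury and the treatments, so the likeness is a description. Nearest to Ms4a6d were C3ar1, the receptor for complement C3a (0.13), Mpeg1, encoding perforin-2 of macrophages (0.21), and Fcgr4, an activating Fc receptor (0.23), where the median over all genes was 1.43. C3ar1 was at 1.33 ± 0.208 TPM in Sham (SD, n = 4), 37.5 ± 6.71 in Vehicle and 13.3 ± 2.32 in PLX3397+Anakinra mice (SD, n = 5), almost the levels of Ms4a6d itself. Nearest to Ms4a7 were Cybb, a subunit of the phagocyte NADPH oxidase (0.33), F13a1, the A chain of coagulation factor XIII (0.34), and Fcgr2b, the inhibitory Fc receptor (0.39). F13a1 belongs to the border macrophage list. Ms4a6c was nearest to Cyp4f18, a cytochrome P450 (0.19), Fcgr1, the high-affinity Fc receptor (0.20), and Ctss, encoding cathepsin S (0.20). Ms4a6b was nearest to Itgam (CD11b), Pld4 and Siglec1 (0.21 to 0.23), and Ms4a4a to Hpgds, Themis2 and Hmha1 (0.33 each).

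Among the members, Ms4a6c and Ms4a7 were 0.33 apart. Of genes that are no members, 1 lay nearer to Ms4a7 than that and 85 nearer to Ms4a6c. Ms4a6b and Ms4a6c were 0.27 apart, with 7 such genes nearer to Ms4a6b and 32 nearer to Ms4a6c. Ms4a6d was 0.54 or more from the other 4 members with at least 2 TPM (Ms4a4c was below this level and not compared). On this scale 103 or more genes that are no members were nearer to it than any of them, its close copies in sequence included. The scale understates changes of low genes, and no other pseudocount was tried for the likeness. In ratios of Vehicle to Sham means, Ms4a6d (29.1) was near Ms4a6c (25.4) and above Ms4a6b (9.74). The Sham mean of Ms4a6c, 0.377 TPM, was under the limit on low values.

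Of the other 12 rows whose symbol begins with Ms4a, 5 were at 0 in every library and 6 had a mean under 0.5 TPM. The latter include Ms4a1, the CD20 gene of B cells, at no more than 0.214 TPM, and Ms4a2, the beta chain of the mast cell IgE receptor, at no more than 0.0992 TPM. The remaining row was Ms4a14, which lies beside Ms4a7 at chr19:11301249-11315877. It was at 0 to 0.091 TPM in Sham, 0.874 to 2.33 in Vehicle, 0.904 to 1.42 in Anakinra, 0.355 to 0.672 in PLX3397 and 0.058 to 0.4 TPM in PLX3397+Anakinra mice. Ms4a14 was higher in Vehicle than in Sham mice (log2 fold change 1.43, SE 0.13, adjusted p = 2.329e-09 in limma), and its group means had the same order as those of Ms4a7. Like Ms4a4c, it passed the limit on low values through the groups in which it was high.

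Tmem176a and Tmem176b, membrane proteins of related structure, had the same order of group means as Ms4a7, with smaller changes. They were at 27.7 ± 4.95 and 32.8 ± 1.11 TPM in Sham (SD, n = 4) and at 105 ± 12.7 and 103 ± 14.5 TPM in Vehicle mice (SD, n = 5), and remained at 84.2 ± 4.26 and 84.7 ± 4.34 TPM in PLX3397+Anakinra mice. The log2 fold changes of PLX3397+Anakinra against Vehicle were -0.31 (SE 0.09) and -0.27 (SE 0.08), beside -2.51 for Ms4a7. Tmem176a and Tmem176b were each called lower there (adjusted p = 0.0198 and 0.0167 in limma), as were 9.6% of all genes.

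Genes of receptor complexes linked to Ms4a proteins were followed as a list of 8, with Clec7a (dectin-1), Trem2, the adaptors Tyrobp and Fcer1g, the kinase Syk, Card9, Plcg2 and Tnfrsf18. In Vehicle mice 7 of 8 were higher than in Sham at adjusted p in limma (26.6% of all genes), with a median log2 fold change of 2.49. Clec7a rose from 0.533 ± 0.165 (SD, n = 4) to 35.9 ± 4.79 TPM (SD, n = 5), a difference on the log2(TPM + 1) scale of 4.59 beside 4.13 for Ms4a6d, while Tnfrsf18 was at 6.79 and 5.10 TPM (adjusted p = 0.0521 in limma). In PLX3397+Anakinra against Anakinra mice 7 of 8 were lower (8.1% of all genes), the exception again Tnfrsf18. The median of the list was -1.15 beside -1.62 for the Ms4a members. Against PLX3397 0 of the 8 were called lower in limma and 5 were lower at unadjusted p (3.78% of all genes). The median was -0.34 beside -0.71 for the members.

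Interferon-stimulated genes, a list of 12 with 11 measured, were all called higher in Vehicle than in Sham mice (26.6% of all genes). In Anakinra against Vehicle mice 0 of 11 were called in limma, 9 of them higher at unadjusted p against 5.5% of all genes, and their median log2 fold change was 0.48 beside -0.31 for the members. In PLX3397+Anakinra against PLX3397 mice 0 of 11 were called lower in limma and 10 were lower at unadjusted p (3.78% of all genes). Their median was -0.49. All 11 were called lower in PLX3397+Anakinra than in Anakinra mice (8.1% of all genes). Of the members, Ms4a4c and Ms4a6b had log2 fold changes above 0 in Anakinra against Vehicle mice, at 0.14 (SE 0.14) and 0.04 (SE 0.16), and neither passed.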

How the data were processed

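Whole-tissue poly(A) RNA-seq of 24 mouse brain samples was used. The authors sequenced paired ends on an Illumina NovaSeq, and trimmed, mapped and counted reads in CLC Genomics Workbench on mm10 (GRCm38 per the labels). The deposited values are TPM per gene, normalised by the authors. Strand and multi-mapping options are not given in the sources used here, and depth is unknown. Columns of the authors' own test values were not used.

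From the TPM, log2(TPM + 1) (17267 genes, those whose mean reached 0.5 TPM) was fitted for all 24 libraries in limma 3.58.1 (R 4.3.3) with a mean per group and a variance trend. Benjamini-Hochberg adjustment ran over all genes, and called means adjusted p under 0.05. Shares and levels relative to microglia genes were tested by exact permutation of mice, two-sided. The limma step was tested on simulated data. Named genes were all members, other Ms4a rows and Tmem176a/b if measured, the 3 most similar genes for each member with at least 2 TPM, and examples of the lists. The members and lists were chosen with earlier results of these data known, and most comparisons share mice with that choice. Mice are separate animals. Alternatives were another pseudocount, filters on low values, rescaling, fits of the compared groups alone, no variance trend, and leaving out each mouse. Sequences came from GENCODE vM21 and RefSeq (GRCm38.p6), aligned with biopython.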

Additional observations from a re-analysis of the deposited data

How the results depend on the processing

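Of 60 member results by limma, 59 kept their sign under the 30 alternatives. The exception was Ms4a6b in Anakinra versus Vehicle, near 0 at 0.04 and between -0.07 and 0.16 over the alternatives, never called. With a minimum mean of 5 TPM only 3 members were tested, so that 3 were called in Vehicle, Anakinra and PLX3397 versus Sham, in PLX3397 versus Vehicle and in PLX3397+Anakinra versus Vehicle or Anakinra, and 1 in PLX3397+Anakinra versus PLX3397. The last comparison gave 0 calls with only the compared groups in the fit (the cause was not tested) and between 2 and 5 when a mouse was left out, the 5 without PLX3397 mouse J01. Rescaling left the calls as they were (size factors 0.9749 to 1.051). The shares that passed numbered between 0 and 17 without a mouse, against 14, with 9 without Vehicle mouse J18B or PLX3397 mouse J02, J19 or J20 and 0 without Sham mouse J15 or J16, and the levels relative to the microglia list between 17 and 30, against 27. Leaving out a mouse raises the smallest p possible in comparisons with Sham that involve its group, and the 42 tests were adjusted together. A call can thus be lost although its own difference hardly moves. The Ms4a6d share in PLX3397+Anakinra versus Sham differed by 28.7 to 32.1 points over these fits, and its call was lost in 7 of 24. How far this accounts for each fall was not tested. With a pseudocount of 0.1, 33 of the relative levels passed, and Ms4a4c relative to the microglia list turned to 1.27 in Vehicle versus Sham, 1.51 in Anakinra versus Sham and -0.61 in PLX3397+Anakinra versus Anakinra mice. Values near 0 TPM, as in Sham mice, carry an unknown counting error. No paired analysis was possible because each animal identifier belongs to 1 mouse of 1 group. In 30 sets of a member and a group, 0 had a mouse set apart from the others by Dixon's test.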
